A study of Mus musculus with 6 samples.

Results

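Cytosolic ribosomal protein genes were followed in a cultured brown adipocyte line, as 89 of the 26214 gene rows counted. They were chosen by gene symbol alone: symbols that begin with Rpl or Rps and a number, with Rplp0, Rplp1, Rplp2 and Rpsa added, and without symbols containing -ps, the ribosomal S6 kinases and Rps19bp1. Rpl32l, Rpl37rt and Rps4l, which GENCODE M21 annotates as processed pseudogenes, carry no -ps and are members. Among them were 46 canonical proteins of the large (60S) subunit, 31 of the small (40S) subunit and 12 other copies, which are paralogs or retrogene-like rows outside the canonical set. The cells were immortalized primary mouse brown preadipocytes, differentiated with insulin, the thyroid hormone T3, methylisobutylxanthine, dexamethasone and indomethacin and then kept in insulin and T3. Treatment on day 7 was 16 hours of 100 nM rotenone, which blocks complex I of the respiratory chain, or of the solvent DMSO. The labels do not say whether the line is 1 clone, nor the strain and age of the donor animals. RNA was sequenced from 3 DMSO libraries and 3 rotenone libraries, but the 3 rotenone files were the same in every count (0 differing genes) and were used as 1 rotenone library. The spread behind every test came from the 3 DMSO libraries, and nothing says whether those were separate cultures, so p-values measure only how these libraries vary, and that variation may be technical.

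A cytosolic ribosome is made of a small subunit, which reads the mRNA, and a large subunit, which joins amino acids, and each canonical ribosomal protein is normally present in a single copy per ribosome, apart from the acidic stalk proteins. Their mRNAs are among the most abundant in growing cells. Most begin with a cytosine and a run of pyrimidines, the terminal oligopyrimidine (TOP) tract, through which mTOR signalling and the RNA-binding protein Larp1 control their translation. Some canonical proteins have a paralog that can take their place in the ribosome, often in 1 tissue such as testis or striated muscle.

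The 4 libraries held between 21611589 and 29194179 counts, the fewest in the rotenone library. The ribosomal RNA precursor row Rn45s took 2.51% to 3.17% of counts in DMSO and 3.91% with rotenone. Brown adipocyte markers were present in every library, with a summed level of 8014 to 9026 CPM (counts scaled to a TMM-adjusted library total, the usual CPM) in DMSO and 7837 CPM with rotenone, and 4 of 6 were lower with rotenone, Ucp1 among them. Of 4 preadipocyte and fibroblast markers, 3 were higher and Pdgfra was lower, and their sum was 902 to 1035 CPM in DMSO and 2292 CPM with rotenone. Among all genes tested, 27.6% were higher and 28.5% lower by the same calls, so these counts say little about so few markers. The macrophage markers summed to 2.30 to 3.57 CPM in DMSO and 15.5 CPM with rotenone. All of that rotenone sum was Cd68, while the defining markers Ptprc and Adgre1 had 0 counts in every library. Endothelial markers summed to 0.838 CPM or less in every library. Skeletal muscle markers summed to 0.338 CPM or less in DMSO and to 6.65 CPM with rotenone, all of it Acta1. The part of these shifts in the results on ribosomal proteins was not tested, and in bulk RNA fewer cells of a type and less RNA per cell cannot be told apart.

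Both subunits were higher with rotenone, gene by gene and in sum. Members of the family took 3.13%, 3.39% and 3.19% of all counts in the 3 DMSO libraries and 5.13% in the rotenone library. The DMSO mean was 3.23% ± 0.138 (SD, n = 3), and the rotenone share was 1.89 percentage points above it, a ratio of 1.59. The exact (Clopper-Pearson) 95% interval of the rotenone share, 5.12% to 5.14%, covers counting error only. The rotenone share lay above all 3 DMSO shares, and an exact permutation test of 3 libraries against 1 cannot reach 0.05. Large-subunit genes alone went from 1.97% ± 0.0869 (SD, n = 3) to 3.13%, small-subunit genes from 1.21% ± 0.0499 (SD, n = 3) to 1.91%, and the other copies from 0.0551% ± 0.00184 (SD, n = 3) to 0.0813%.

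**Figure D1:**
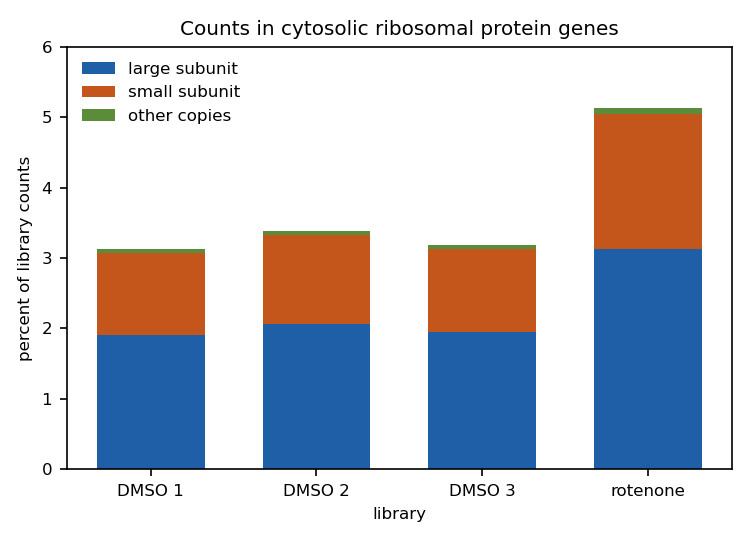
Percent of each library's counts in ribosomal protein genes, stacked by large subunit, small subunit and other copies, for the 3 DMSO libraries and the rotenone library. The 3 DMSO bars reach 3.13% to 3.39% and the rotenone bar 5.13%.

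The balance between the subunits was almost the same in every library. Summed large-subunit CPM divided by summed small-subunit CPM was 1.62, 1.63 and 1.64 in DMSO and 1.64 with rotenone, a rotenone value inside the DMSO range. The median large-subunit gene stood at 350, 356 and 337 CPM in DMSO and 604 CPM with rotenone, and the median small-subunit gene at 315, 344 and 316 CPM and then 601 CPM. Within DMSO, replicate 2 was the highest of the 3 for 68 of the 77 canonical genes. Its share of counts, 3.39%, was still nearer to the other controls than to the rotenone library.

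Of the 89 members, 86 passed the filter on low counts, and 85 of these 86 were higher with rotenone by edgeR's quasi-likelihood test at an adjusted p of 0.05. Over all 14709 genes tested, 27.6% were higher. All 46 large-subunit and all 31 small-subunit genes were higher, as were 8 of the 9 tested other copies, and 0 members were lower, against 28.5% of all genes. Rpl39l, among those 8, passed the filter only through the rotenone library. When 1 CPM in 3 libraries was required, it was not tested, 84 of 85 members were higher and the median of the other copies was 0.70. A call in either direction was made for 56.1% of all genes. The rotenone level lay above all 3 DMSO levels for 85 of the 86 members, against 41.5% of all genes, and below all 3 for none of the 77 canonical genes, against 44.7% of all genes. The count of lower members was also 0 at an unadjusted p under 0.05, and 0 with DESeq2 and with limma-voom. The median log2 fold change was 0.82 for the large subunit (range 0.35 to 1.21), 0.83 for the small subunit (0.46 to 1.12) and 0.73 for the 9 other copies, and −0.04 over all genes. A rise of at least 1.5-fold was called for 75 members (14.9% of all genes) and of at least 2-fold for 10 members (5.53% of all genes). Rpl39l was in both counts. The median change was 1.76-fold in the large subunit and 1.78-fold in the small subunit.

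How many members passed depended on the spread assumed for the single rotenone library. The biological coefficient of variation estimated from the DMSO libraries was 6.90%. When 20% was put in its place, 46 members were higher, 42 of them canonical, against 9.57% of all genes. Tested against a 1.5-fold change, 63 members were higher (59 canonical), against 8.18% of all genes. The 4 other copies in each of these counts were Rpl37rt, Rpl39l, Rps27l and Rps27rt. Of these, Rpl39l passed the filter only through the rotenone library, and Rps27rt cannot be told apart from Rps27. With each of the other alternatives run, on scaling, filter, tool, threshold and left-out DMSO library, all 77 canonical genes stayed past the threshold.

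**Figure D2:**
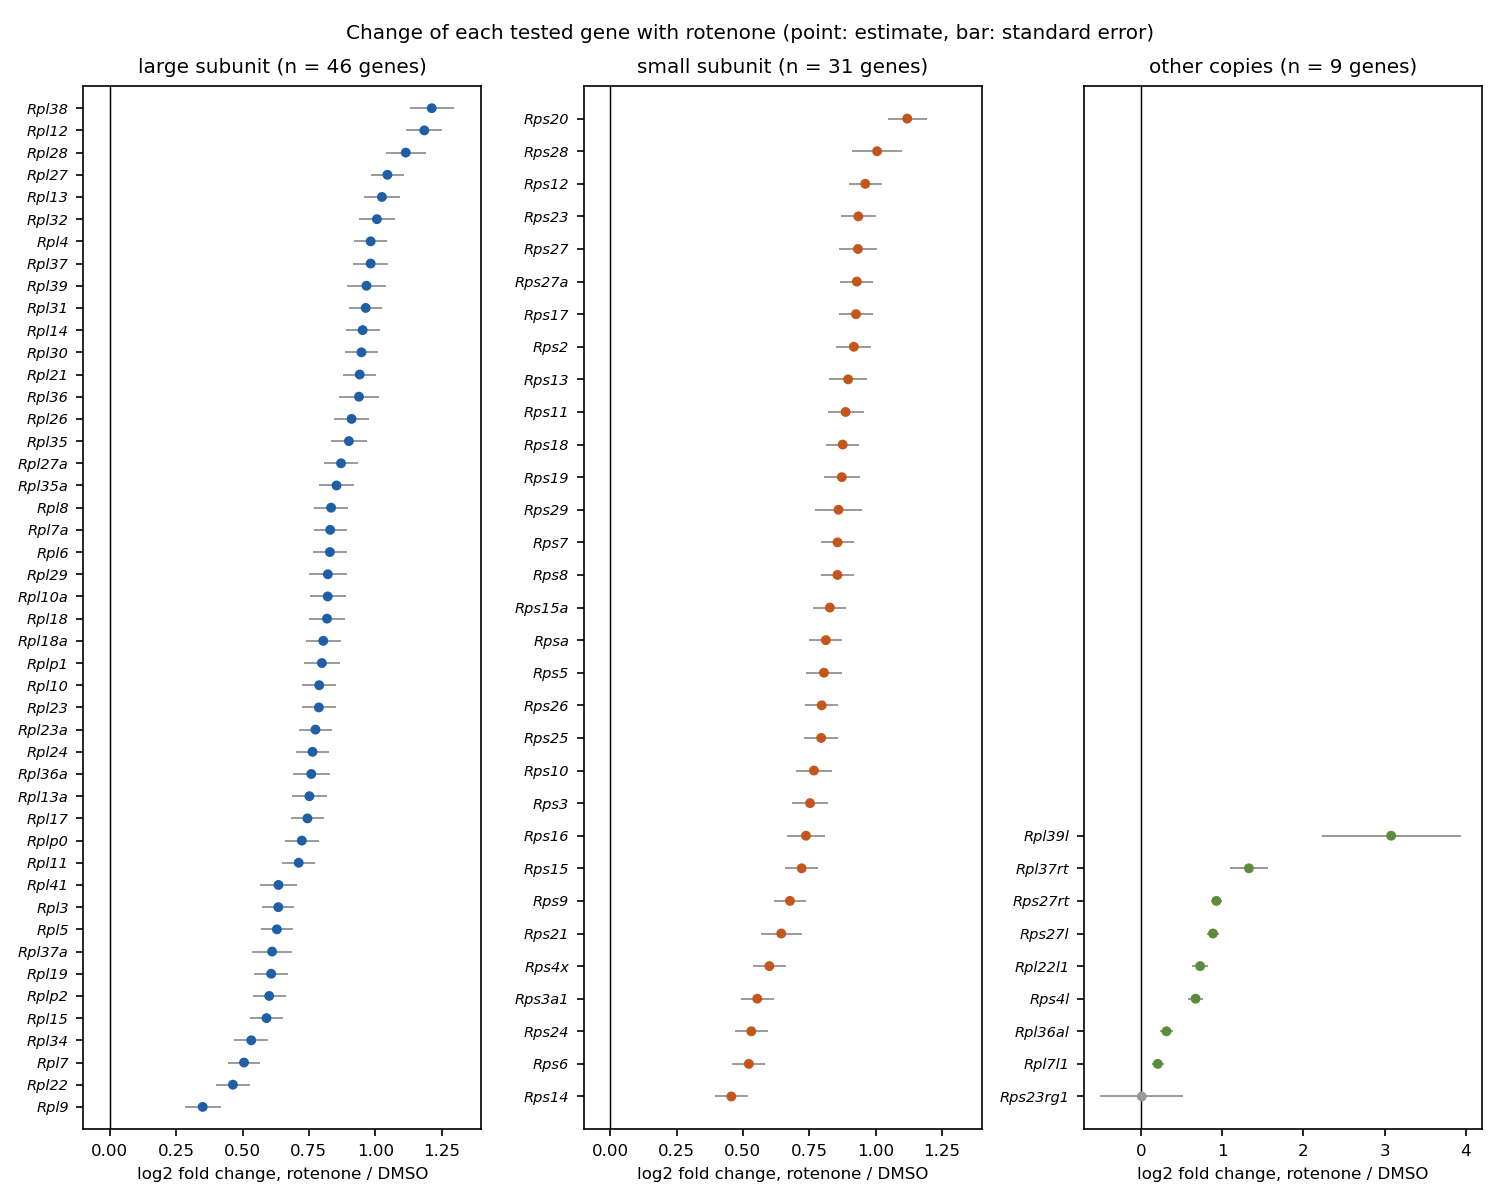
Log2 fold change of rotenone over DMSO for the 86 tested genes, in panels for large subunit, small subunit and other copies, with bars of 1 standard error. All 77 canonical genes lie to the right of 0, from 0.35 for Rpl9 to 1.21 for Rpl38, and Rps23rg1 (grey) was not called.

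The canonical gene with the largest rise was Rpl38, a large-subunit surface protein that mouse genetics ties to the translation of Hox mRNAs in the embryo. It stood at 80.1, 96.4 and 84.1 CPM in DMSO and at 201 CPM with rotenone, above every control and 2.32-fold up (log2 1.21 ± 0.08 SE, adjusted p = 1.2e-09). Rpl12, at the base of the stalk, had 267, 281 and 248 CPM in DMSO and 603 CPM with rotenone (log2 1.19 ± 0.07). Rpl28 went from 203, 236 and 208 CPM to 467 CPM (log2 1.12 ± 0.07), and Rpl27 from 273, 294 and 282 CPM to 584 CPM (log2 1.05 ± 0.06). In each of the 4 the rotenone library lay clear of the DMSO range. In the small subunit the largest rise was that of Rps20, a protein of the 40S head, from 234, 263 and 226 CPM to 523 CPM (log2 1.12 ± 0.07).

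The smallest rises were in genes that were not weakly expressed. Rpl9, which sits at the flank of the stalk base, had 460, 505 and 500 CPM in DMSO and 622 CPM with rotenone, a 1.27-fold rise (log2 0.35 ± 0.07, adjusted p = 0.00020). Of its 50-base stretches 93.3% also occur in another gene, 86.1% in the pseudogene Rpl9-ps6, and its count is uncertain for that reason. Rps14, a platform protein of the small subunit, had 520, 534 and 506 CPM and then 713 CPM (log2 0.46 ± 0.06). Rpl22, an RNA-binding protein of the large subunit, went from 225, 230 and 232 CPM to 316 CPM (log2 0.46 ± 0.06). Rpl7 went from 456, 451 and 452 CPM to 643 CPM (log2 0.51 ± 0.06). Rps6, the ribosomal protein phosphorylated by S6 kinase, went from 501, 528 and 517 CPM to 740 CPM (log2 0.52 ± 0.06). All 5 still exceeded every DMSO library. The canonical rises ran from 0.35 to 1.21, and the standard errors of the single genes were near 0.07. The extremes of many genes lie apart in any case, and the differences between genes were not tested.

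**Figure D3:**
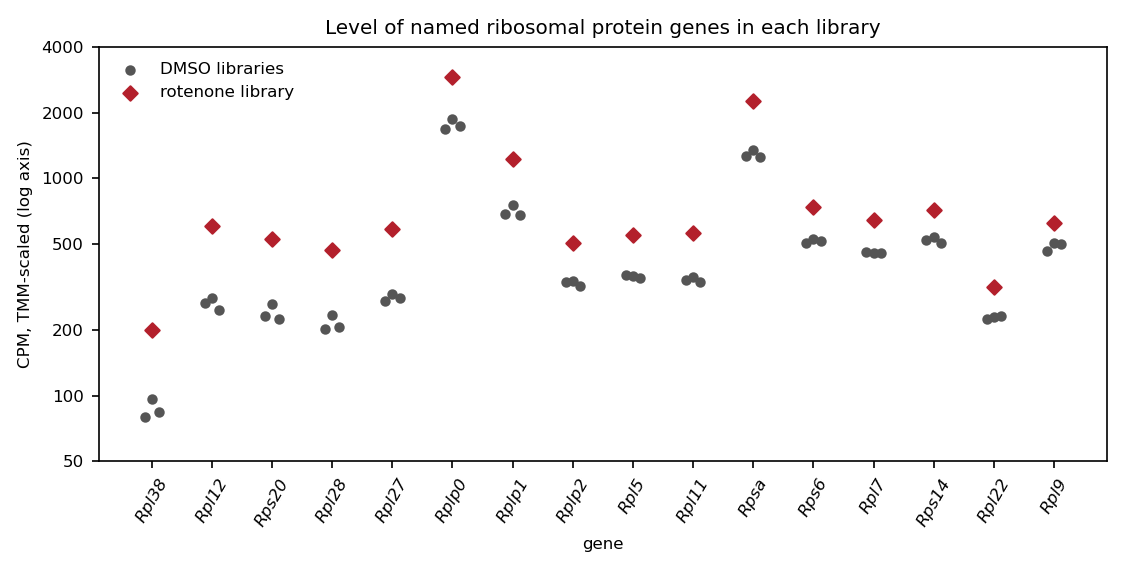
Level in CPM (log axis) of 16 named ribosomal protein genes in each DMSO library (grey points) and in the rotenone library (red diamonds), ordered with the largest rises at the left and the smallest at the right. The rotenone library lies above all 3 DMSO libraries for every gene shown, by 2.32-fold for Rpl38 and 1.27-fold for Rpl9.

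By place in the ribosome, the acidic stalk that recruits elongation factors had a median log2 fold change of 0.72 over its 3 genes. Rplp0, the anchor of the stalk, was at 1675, 1863 and 1738 CPM in DMSO and 2903 CPM with rotenone (log2 0.72 ± 0.07). Rplp1 was at 687, 755 and 676 CPM and then 1229 CPM (log2 0.80 ± 0.07), and Rplp2 at 332, 338 and 321 CPM and then 501 CPM (log2 0.60 ± 0.06). The rotenone value was above the controls for each. Rpl5 and Rpl11, which carry 5S ribosomal RNA into the large subunit and, when free, bind the p53 inhibitor Mdm2, were at 359, 356 and 349 CPM and 340, 351 and 333 CPM in DMSO, and at 549 and 559 CPM with rotenone. Their log2 fold changes were 0.63 ± 0.06 and 0.71 ± 0.06, both under the large-subunit median. The 7 proteins around the exit of the peptide tunnel had a median of 0.90 and the 14 of the 40S head a median of 0.87. Rpsa, a small-subunit protein also known as the laminin receptor, was at 1260, 1346 and 1253 CPM and then 2260 CPM (log2 0.81 ± 0.06). Rps3a1, near the mRNA exit, was at 455, 461 and 446 CPM and then 667 CPM (log2 0.55 ± 0.06). The difference of these groups from each other and from the other members was not tested.

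Levels between genes were compared per kilobase of an annotated transcript chosen for each gene, with coding status and annotation quality ranked before length. On that scale, Rplp1 was the highest canonical gene, at 1415 ± 85.9 CPM per kb in DMSO (SD, n = 3) and 2463 CPM per kb with rotenone, followed by Rplp0 with 1295 ± 70.5 and then 2138 CPM per kb. Rpl23a, a tunnel-exit protein, was next with 1183 ± 36.0 and then 2024 CPM per kb. The lowest were Rps15a, with 44.5 ± 0.610 and then 78.9 CPM per kb, Rps20 with 64.97 ± 5.28 and then 141 CPM per kb, and Rpl18 with 69.2 ± 3.84 and then 122 CPM per kb. Their annotated transcripts are 5179, 3706 and 2989 bases long, against a median of 835 bases over the canonical genes, and whether these cells use such long isoforms was not tested. Without the length, Rps15a had 230, 234 and 227 CPM in DMSO and 409 CPM with rotenone, and Rpl18 had 198, 220 and 204 CPM and then 365 CPM.

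The other copies did not all follow their partners. Rpl36al, a paralog of Rpl36a, rose only from 113, 108 and 104 CPM to 135 CPM (log2 0.32 ± 0.07, adjusted p = 0.0013). Its call was lost with the correction for length and GC content (log2 0.10, adjusted p = 0.27) and with the 20% coefficient of variation (adjusted p = 0.53). Its partner Rpl36a went from 143, 141 and 130 CPM to 234 CPM (log2 0.76 ± 0.07). Counts of Rpl36al were 79.3%, 76.8% and 79.8% of those of Rpl36a in DMSO and 57.8% with rotenone, a value below all controls. The log2 ratio differed by −0.44 from the DMSO mean, against a DMSO standard deviation of 0.03. Of the 50-base stretches, 63.3% of those in Rpl36al and 85.5% of those in Rpl36a occur in other genes, so both counts are uncertain. Rpl7l1, a paralog of Rpl7 known from ribosome assembly, rose from 87.3, 85.5 and 84.0 CPM to 98.9 CPM (log2 0.21 ± 0.07, adjusted p = 0.022), and its call was lost with upper quartile scaling (adjusted p = 0.064), with library size scaling (adjusted p = 0.32) and with the 20% coefficient of variation (adjusted p = 0.70). Its counts were 19.1%, 19.0% and 18.6% of those of Rpl7 in DMSO and 15.4% with rotenone, again below all controls. For Rpl7l1 and Rpl7 the shared 50-base stretches were 9.03% and 53.3%. Ratios inside a library do not depend on the scaling between libraries, but they are not corrected for length and GC content. With that correction, the log2 fold changes were 0.25 for Rpl7l1 and 0.35 for Rpl7, closer together than without it. For Rpl36al and Rpl36a they were 0.10 and 0.64.

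By uncorrected counts, Rpl22l1 went the other way against its partner Rpl22. It rose from 41.6, 43.6 and 35.9 CPM to 67.0 CPM (log2 0.73 ± 0.10), and its counts were 18.5%, 18.9% and 15.5% of those of Rpl22 in DMSO and 21.2% with rotenone. The log2 ratio was higher by 0.27, with a DMSO standard deviation of 0.16, and by 0.18 without DMSO replicate 3. With the length and GC correction, the log2 fold changes lay closer, at 0.50 for Rpl22l1 and 0.43 for Rpl22. The rotenone ratio lay above all 3 controls, and 57.3% of the 50-base stretches of Rpl22l1 are shared with other genes. Rps27l, a paralog of Rps27 and a known p53 target, rose from 110, 116 and 106 CPM to 205 CPM (log2 0.89 ± 0.07). Its ratio to Rps27 was 80.6%, 75.9% and 73.2% in DMSO and 74.1% with rotenone, inside the DMSO range. Rps4l was at 42.1, 49.7 and 48.0 CPM and then 74.3 CPM (log2 0.67 ± 0.10). Its ratio to Rps4x, at 10.6%, 12.5% and 12.1% and then 12.4%, was also inside the DMSO range. With the length and GC correction, the log2 fold changes were 0.36 for Rps4l and 0.57 for Rps4x.

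**Figure D4:**
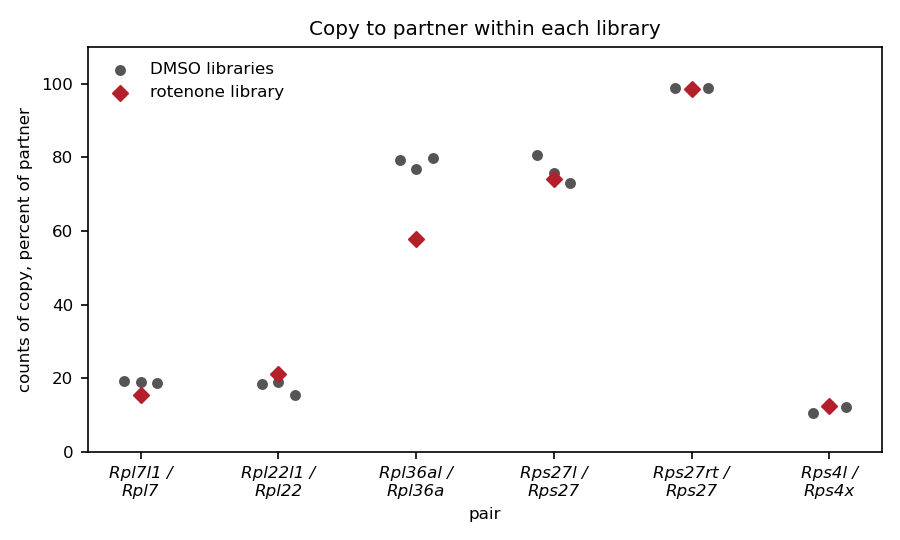
Counts of 6 other copies as a percent of the counts of their canonical partner, in each DMSO library (grey points) and in the rotenone library (red diamonds). Rpl36al to Rpl36a is at 76.8% to 79.8% in DMSO and 57.8% with rotenone, and Rpl7l1 to Rpl7 at 18.6% to 19.1% and then 15.4%, while Rps27l to Rps27 and Rps4l to Rps4x stay inside the DMSO range.

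The partners themselves were measured as follows. Rpl3, which reaches into the peptidyl transferase centre, was at 541, 550 and 536 CPM in DMSO and 842 CPM with rotenone (log2 0.63 ± 0.06). Rpl10, the last protein to join the large subunit, was at 529, 585 and 555 CPM and then 961 CPM (log2 0.79 ± 0.07). Rpl39, a tunnel protein, was at 146, 163 and 143 CPM and then 294 CPM (log2 0.97 ± 0.07). Rps27 was at 136, 153 and 145 CPM and then 276 CPM (log2 0.93 ± 0.07), and Rps4x at 396, 399 and 395 CPM and then 601 CPM (log2 0.60 ± 0.06). Every rotenone value was above its 3 controls.

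The coding sequences of Rps27 and Rps27l, shown because they tell which copies these reads can separate, are each 252 bases in GENCODE M21 on GRCm38. Rps27 lies on the minus strand at chr3:90212522-90213651 and Rps27l on the plus strand at chr9:66946086-66949516. They differ at 60 positions, written in capitals in the second sequence. Rps27rt, a copy with a single exon at chr9:114982366-114982739, has a coding sequence identical to that of Rps27, with 0 differing bases.
Rps27: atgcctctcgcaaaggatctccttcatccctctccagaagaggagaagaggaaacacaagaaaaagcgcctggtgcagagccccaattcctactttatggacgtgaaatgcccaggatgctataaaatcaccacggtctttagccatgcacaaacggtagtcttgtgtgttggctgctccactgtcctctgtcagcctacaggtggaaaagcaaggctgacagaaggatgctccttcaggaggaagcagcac
Rps27l: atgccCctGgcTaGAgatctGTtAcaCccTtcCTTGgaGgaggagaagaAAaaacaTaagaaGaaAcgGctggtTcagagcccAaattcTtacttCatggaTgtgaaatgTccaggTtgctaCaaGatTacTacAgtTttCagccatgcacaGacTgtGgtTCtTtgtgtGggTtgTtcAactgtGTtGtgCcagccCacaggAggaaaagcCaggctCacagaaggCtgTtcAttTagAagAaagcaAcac
Of the 50-base stretches of the Rps27 transcript, 98.6% also occur in Rps27rt. Counts of Rps27rt were 99.0%, 98.5%, 98.8% and 98.5% of those of Rps27 in the 4 libraries, so the rows for these copies cannot be told apart as separate genes. The rise of Rps27rt, log2 0.93 ± 0.07, therefore cannot be told apart from that of Rps27. Members with less than 50% of their 50-base stretches shared with another gene had a median of 0.86 in the large subunit (26 genes) and 0.80 in the small subunit (16 genes). Those with more sharing had 0.78 (20 genes) and 0.88 (15 genes).

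Several other copies had few or no counts. Rpl39l, a paralog of Rpl39 best known from testis, had 2, 5 and 5 counts in DMSO and 25 with rotenone. The ratio was 8.75 with an exact 95% counting interval of 4.23 to 19.1, which covers counting error only. Since it passed the filter only through the rotenone library, its call adds nothing to that ratio. Even with rotenone Rpl39l stood at 1.23 CPM, far below the 294 CPM of Rpl39. The germ cell markers Prm1 and Tnp1 had 0 counts in every library, and Dazl was at 0.112 CPM or less in DMSO and 0 with rotenone. Rpl37rt, a retrogene-like copy of Rpl37, had 4.86, 3.25 and 4.75 CPM and then 10.8 CPM (log2 1.33 ± 0.23), and 38.7% of its 50-base stretches occur in Rpl37. Rpl37 itself was at 198, 215 and 196 CPM and then 401 CPM (log2 0.98 ± 0.07). Rps23rg1 was at 1.22, 1.14 and 1.31 CPM in DMSO and 1.23 CPM with rotenone, inside the DMSO range (log2 0.01 ± 0.51, adjusted p = 0.99). Rpl3l, the paralog of Rpl3 known from striated muscle, had 3, 5 and 4 counts and then 7 counts and was not tested. Rpl10l, known from testis, and Rpl32l had 0 counts in every library, which allows up to 0.101 to 0.148 CPM.

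Promoter windows from RefSeq (GRCm38.p6) were at hand for 57 of the 77 canonical genes and 27025 genes in all. Start-site sequences are shown for 3 of the largest and 3 of the smallest canonical rises. Rps20 (log2 1.12), which rose more than Rpl28, is not shown. Rps14 (log2 0.46) and Rpl7 (log2 0.51), which rose less than Rps6, are not shown either. Each runs from 40 bases before to 20 bases after the annotated start. Capitals mark CTTTC on the sense strand, searched from 20 bases before to 30 bases after the start, and CCGGAAG, a core of the kind bound by ETS factors, searched on either strand of the whole 300-base window. Rpl38 is at chr11:114668540-114668599 and Rpl12 at chr2:32961672-32961731, both on the plus strand. Rpl28 is at chr7:4792925-4792984 and Rpl22 at chr4:152325686-152325745, both on the plus strand. Rpl9 is at chr5:65391412-65391471 and Rps6 at chr4:86857348-86857407, both on the minus strand.
Rpl38: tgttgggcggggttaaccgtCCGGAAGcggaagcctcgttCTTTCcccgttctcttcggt
Rpl12: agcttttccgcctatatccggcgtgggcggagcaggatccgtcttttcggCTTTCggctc
Rpl28: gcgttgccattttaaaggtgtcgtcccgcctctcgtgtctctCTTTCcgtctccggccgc
Rpl9: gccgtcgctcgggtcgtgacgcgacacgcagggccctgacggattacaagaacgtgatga
Rpl22: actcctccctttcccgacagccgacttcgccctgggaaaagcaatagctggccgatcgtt
Rps6: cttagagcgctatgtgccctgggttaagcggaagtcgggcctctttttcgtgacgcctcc
CTTTC was present in 21 of the 57 canonical genes (36.8%) and in 7.66% of all genes. The longer CTCTTTC, which contains CTTTC, was in 8 of 57 (14.04%) and in 0.796% of all. CCGGAAG was in 24 of 57 (42.1%) and in 9.93% of all. Among the genes shown, picked from both ends of the range of rises, the 3 largest rises had CTTTC within 20 bases of the start. The 3 smallest shown did not. Rpl22 holds CTTTC further upstream, outside the searched stretch. This gene has 2 promoter windows, of which the first is shown, whereas the counts over the 57 genes used any window of a gene. Rps6 has a run of pyrimidines at its annotated start that a search for CTTTC misses. The contrast between the genes shown therefore depends on the motif and the window. It may also depend on which genes are shown, and it was not tested. Over all 57 the median log2 fold change was 0.83 with CTTTC and 0.76 without it, and 0.80 with CCGGAAG and 0.82 without it. These motifs were chosen after the data were seen, and a match is a description of the letters only.

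Rack1 and Fau are ribosomal proteins whose symbols fall outside the rule. Rack1, a scaffold on the small subunit, was at 517, 570 and 549 CPM in DMSO and 932 CPM with rotenone (log2 0.77 ± 0.06), above all 3 controls. Fau, a ubiquitin-like protein fused to a small-subunit protein, was at 13.1, 10.3 and 12.1 CPM and then 13.3 CPM, with no call (log2 0.17 ± 0.17, adjusted p = 0.43). Its DMSO mean of 11.8 CPM was far below the 83.7 CPM of Rps28, the lowest canonical small-subunit gene. Whether the Fau row misses reads was not tested.

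Elongation and initiation factors were also higher in most cases, with lower medians. Of 18 elongation factors and further TOP mRNAs, 16 were higher and 1 lower, with a median log2 fold change of 0.57. The largest rises were those of Eef1g, a subunit of elongation factor 1 (0.92 ± 0.06), and Naca, which binds nascent peptides (0.85 ± 0.07). The smallest was that of Nap1l1, a histone chaperone (0.18 ± 0.07, adjusted p = 0.039). Eif3l, a subunit of initiation factor 3, fell from 337, 346 and 330 CPM to 204 CPM (log2 −0.73 ± 0.07). Of 28 initiation factors, 21 were higher and 1 lower, with a median of 0.52. Eif5a (1.07 ± 0.06) and Eif2b3 (0.87 ± 0.12) had the largest rises, Eif1ax the smallest (0.21 ± 0.08), and the RNA helicase Eif4a2 fell (−0.31 ± 0.07). Of 12 regulators of the translation of these mRNAs, 5 were higher and 2 lower, with a median of 0.21, where 27.6% of all genes were higher and 28.5% lower. Rheb, which activates mTOR, rose from 83.2, 83.8 and 87.2 CPM to 144 CPM (log2 0.76 ± 0.07), and Eif4ebp1, a repressor of cap-dependent translation, rose by a log2 of 0.47 ± 0.06. Mtor itself fell from 120, 112 and 115 CPM to 88.3 CPM (log2 −0.39 ± 0.08), and Eif4ebp2 fell by a log2 of 0.66 ± 0.09.

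Genes for the mitochondrial ribosome were spread more widely. Of 78 mitochondrial ribosomal proteins, all tested, 57 were higher, 4 lower and 17 without a call, with a median of 0.45. Over all genes tested, 27.6% were higher and 28.5% lower. Mrpl58 (1.06 ± 0.08) and Mrps5 (1.03 ± 0.07) had the largest rises, and Mrpl18 (−0.43 ± 0.09) and Mrpl51 (−0.31 ± 0.09) fell. The spread of log2 fold changes over genes was 0.35 (SD) there, 0.19 in the large subunit and 0.15 in the small subunit. The difference between the lists was not tested.

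**Figure D5:**
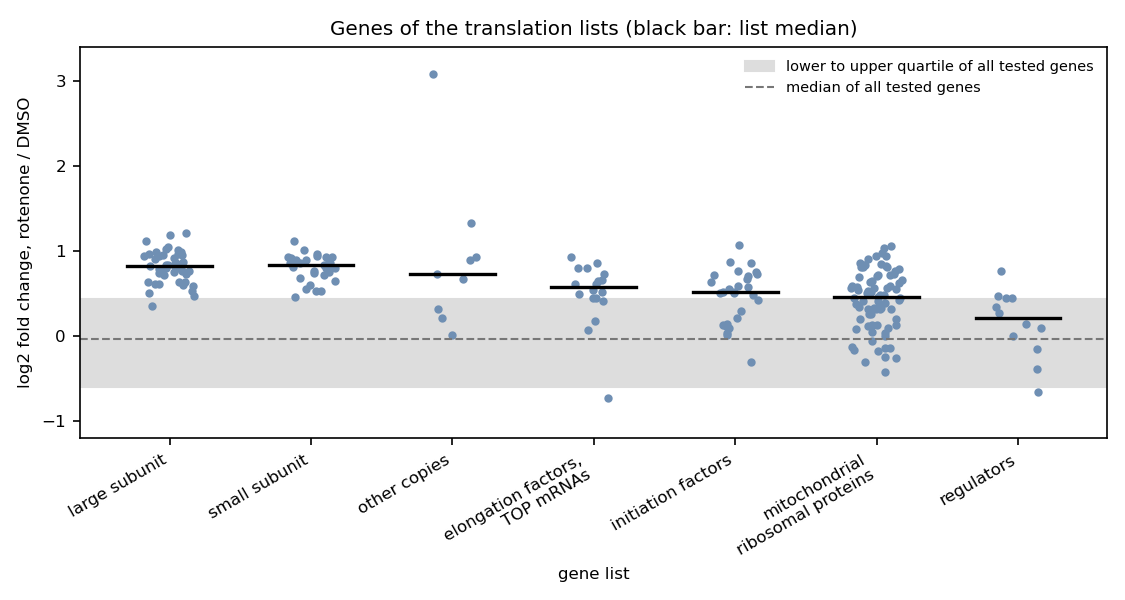
Log2 fold change of every tested gene in 7 translation lists (points, spread sideways at random), with each list's median as a black bar, the range between the quartiles of all tested genes (−0.60 to 0.43) in grey and their median as a dashed line. The medians run from 0.83 for the small subunit to 0.21 for the regulators, and the canonical cytosolic genes lie in the narrowest band.

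Transcript length moved with the change in this library pair, and these genes are short. The median canonical transcript was 835 bases, against 2863 bases over all genes tested with an annotated transcript. Among genes outside the family, the median log2 fold change ran from 0.22 in the shortest of 10 length classes to −0.28 in the longest. Of the canonical genes, 53 fall in the length range of that shortest class, where 35.1% of the genes outside the family were higher. With a correction for length and GC content, the medians were 0.63 for the large subunit, 0.68 for the small subunit and 0.50 for the other copies, all 77 canonical genes stayed past the threshold, and Rpl36al lost its call. Calls for 84 members remained under this correction.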

How the data were processed

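RNA-seq was done on differentiated brown adipocytes given DMSO or rotenone. The authors deposited raw counts of reads per gene symbol, whole numbers and not normalized. TopHat2 and mm10 are named in the submitters' processing notes. The counting program, its annotation, its use of strand and its treatment of multi-mapped reads are not stated in the labels, so values of near-identical, overlapping or antisense genes are uncertain. The 3 rotenone files held identical counts and were counted as 1 sample.

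Counts were scaled by TMM, filtered with filterByExpr defaults (14709 of 26214 genes left) and tested with edgeR 4.0.16 (R 4.3.3), by the robust quasi-likelihood F test with 2 residual degrees of freedom and Benjamini-Hochberg adjustment over these genes. An adjusted p under 0.05 was a call. The standard error is the size of a log2 fold change divided by the square root of F. The coefficient of variation given for the spread is edgeR's square root of the common dispersion. Lists are described by counts and medians, with no test. A copy was set against its partner as a ratio of counts in the listed pairs where both had at least 10 counts in every library; Rpl37rt and Rps23rg1 were in no listed pair. Lengths, GC content, coding sequences and shared 50-base stretches come from a GENCODE M21 transcript (GRCm38) chosen per gene, which matched 88 of the 89 members. It was ranked by coding status, APPRIS principal tag, basic tag and support level, and by length only among equals. Start windows come from RefSeq (GRCm38.p6). A length and GC correction used 20 by 5 bins. Scripts were tested on simulated data.

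Members and lists were chosen with earlier results of these data known. Named genes were every other copy, Rpl3, Rpl7, Rpl10, Rpl22, Rpl36a, Rpl39, Rps27, Rps4x and Rps3a1, the stalk, Rpl5, Rpl11, Rpsa, Rps6, the 5 largest and 5 smallest canonical rises, the 3 highest and 3 lowest canonical levels per length, and the 2 highest and 2 lowest calls of the other lists. Markers, Fau and Rack1 are further listed genes, and Rpl37 was added after its values were seen. A further listed gene is not reported here. Alternatives covered scaling, filters, DESeq2 1.42.0, limma-voom (limma 3.58.1), left-out libraries and the assumed spread.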

Additional observations from a re-analysis of the deposited data

How the results depend on the processing

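The count of 85 higher members was 84 or 85 under every alternative except the 2 that set a stricter bar: 63 for the test against 1.5-fold and 46 when a 20% coefficient of variation was assumed. It was 85 without any 1 of the 3 DMSO libraries, and 0 members were lower in each run. Over all genes, the higher count ran from 4054 to 1408 with that assumed spread and to 1203 against 1.5-fold. Other scalings moved the median of all genes from −0.04 to −0.16 at most (library size), and split all calls 3245 higher to 5153 lower there, against 4054 to 4197. The large-subunit median of 0.82 became 0.78 with upper quartile scaling, 0.70 with library size scaling and 0.63 with the length and GC correction. It was 0.86 over the members with under 50% of their 50-base stretches shared, an alternative chosen after seeing the data. The small-subunit median of 0.83 became 0.71 with library size scaling and 0.68 with the length and GC correction, and the median of the other copies went from 0.73 to 0.50 with that correction. Rps23rg1, never called, changed sign to −0.032 with upper quartile scaling and −0.11 with library size scaling, and ran from −0.034 to 0.063 with a DMSO library left out. The cause of these shifts was not tested. Among 35 named members, 15 kept their call or lack of one with the 20% spread and 33 or more under each of the other alternatives except the test against 1.5-fold. Leaving out a DMSO library moved the difference in share from 1.84 to 1.97 points. No paired analysis was possible because the 3 rotenone files are identical and enter as 1 library. With 1 rotenone library, its own spread was not measured, and levels under about 0.148 CPM cannot be told from 0.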

Other observations

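Of 10 ribosomal protein pseudogene rows that the symbol rule leaves out, 8 were tested, and 3 were higher and 1 lower. Over all genes tested, 27.6% were higher and 28.5% lower, so these counts say little about so few rows. Rpl34-ps1, all of whose 50-base stretches occur in other genes, stood at 361, 354 and 338 CPM in DMSO and 502 CPM with rotenone (log2 0.52 ± 0.06), next to a log2 of 0.53 ± 0.06 for Rpl34 itself. Rps15a-ps4 rose from 5.54, 6.82 and 5.69 CPM to 15.8 CPM (log2 1.39 ± 0.19), more than Rps15a (0.83 ± 0.06). Rps19-ps3 had 22, 21 and 15 counts in DMSO and 0 with rotenone. These rows were named after their values were seen. With the pseudogene rows added, the family took 5.19% of rotenone counts and 3.28% ± 0.138 (SD, n = 3) of DMSO counts.

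Across the 77 canonical genes, which share the same 4 libraries, the log2 fold change went with the coefficient of variation in DMSO (Pearson r of 0.47, Spearman rho of 0.41). It was lower in genes with a higher log2 mean CPM in DMSO (Pearson r of −0.37, Spearman rho of −0.44). It was weakly related to transcript length (−0.05 and −0.10), to GC content (0.17 and 0.15) and to the share of 50-base stretches found in other genes (−0.09 and −0.09). These are descriptions across genes, which are not independent replicates. The DMSO values enter the fold change, the mean CPM and the coefficient of variation alike. Part of the relations to the latter measures may therefore be built in.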
